A study of Mus musculus with 16 samples.

Results

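Expression of 28 genes of cholesterol and fatty acid synthesis was followed through kidney and liver tumors that arise when reprogramming is switched on and then stopped in living mice. The genes were taken from a given list, each read from 1 probe set, and they stand among 19938 genes measured on the same arrays. They comprise 14 enzymes of sterol synthesis, 4 genes of sterol regulation and transport, and 10 genes of fatty acid synthesis. All 28 had a probe set with that single symbol, and none was removed for a low level.

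Total RNA of 16 samples was hybridised to 1-channel Affymetrix arrays, 1 array a sample, in 6 groups. The ES cell group was 1 culture of 129xC57BL6 F1 background, and there were 3 arrays each of normal kidney, normal liver, kidney tumor, liver tumor and secondary kidney tumor. The mice were derived from the ES cell line and carried doxycycline-inducible reprogramming factors, on a 129xC57BL6 F1 background or a mix of the same strains. Kidney tumors were collected 7 days after doxycycline was withdrawn, from mice that had received it for 7 days from 4 weeks of age, and normal kidney came from mice of that same age. A doxycycline schedule was recorded for kidney tumors only, not for liver tumors or any other group. Secondary kidney tumors had been transplanted under the skin of immunodeficient mice, so they also hold host tissue of unstated strain. The primary tumors grew in chimeric mice and can include ICR host cells, per the labels. The ages of the liver samples and of the secondary tumors, the cells that expressed the factors in each organ, and whether the 3 arrays of a group came from separate animals are not stated in the labels. The p-values therefore measure only how far these samples spread, and some of that spread may be technical.

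Sterol synthesis builds cholesterol from acetyl-CoA through mevalonate, farnesyl diphosphate, squalene and lanosterol. Fatty acid synthesis starts from the same acetyl-CoA, which Acly releases from citrate, and proceeds through malonyl-CoA and palmitate to elongation and desaturation. Both branches are controlled by the SREBP transcription factors, encoded by Srebf1 and Srebf2, which Insig proteins hold in the endoplasmic reticulum when sterols are abundant, and hepatocytes are a main site of both syntheses in the body.

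Promoter sequence was matched to the members because the factors above act through short elements near the start site. RefSeq promoters on GRCm38.p6 were found for 21 of the 28 genes, and the 250 bases before each start site were searched on both strands. The genes not matched were Fdps, Fdft1, Sqle, Stard4, Scd1, Scd2 and Elovl3. The sterol regulatory element as the letters TCACNCCAC was present in 1 of the 21, Hmgcs1, and in 1.22% of 27025 genes. The CCAAT box, bound by NF-Y, was present in 17 of the 21 and in 37.5% of all genes. The GC box GGGCGG, bound by Sp1, was present in 16 of the 21 and in 35.4% of all genes, and the E-box CACGTG in 5 of the 21 and in 6.86%. A match is a description of the letters and shows no binding. Only these letters in these 250 bases were searched, so the lack of a match does not show that an element is absent. Windows of 5 members are printed 5′ to 3′ along the gene, with every match of these motifs in capitals, so that a CCAAT box on the other strand reads ATTGG and a GC box CCGCCC. The pair of CCAAT matches in CCAATTGG of Fasn overlap on opposite strands. Hmgcs1 (chr13:119690101-119690350 on the plus strand) is shown as the first sterol enzyme of the list, Lss (chr10:76531355-76531604 on the plus strand) as a later enzyme, Insig1 (chr5:28071162-28071411 on the plus strand) as a regulator, Fasn (chr11:120824548-120824797 on the minus strand) for the fatty acid branch, and Elovl7 (chr13:108214154-108214403 on the plus strand) as a member that rose in liver tumors and has no CCAAT box in this window.
Hmgcs1: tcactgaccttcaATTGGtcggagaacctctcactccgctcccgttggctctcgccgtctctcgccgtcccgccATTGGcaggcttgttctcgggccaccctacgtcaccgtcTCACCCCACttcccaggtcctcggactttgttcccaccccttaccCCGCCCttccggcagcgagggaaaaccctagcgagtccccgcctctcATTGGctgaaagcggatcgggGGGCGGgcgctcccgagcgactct
Lss: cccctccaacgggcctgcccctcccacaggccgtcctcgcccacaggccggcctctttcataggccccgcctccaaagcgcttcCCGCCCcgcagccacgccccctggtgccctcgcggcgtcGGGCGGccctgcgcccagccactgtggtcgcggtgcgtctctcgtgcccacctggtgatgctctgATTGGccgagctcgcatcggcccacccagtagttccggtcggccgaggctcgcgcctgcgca
Insig1: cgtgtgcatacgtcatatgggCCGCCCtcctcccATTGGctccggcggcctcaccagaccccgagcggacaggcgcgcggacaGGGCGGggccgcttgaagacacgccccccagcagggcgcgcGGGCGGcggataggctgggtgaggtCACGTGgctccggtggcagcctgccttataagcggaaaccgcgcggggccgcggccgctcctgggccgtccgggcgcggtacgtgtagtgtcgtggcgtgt
Fasn: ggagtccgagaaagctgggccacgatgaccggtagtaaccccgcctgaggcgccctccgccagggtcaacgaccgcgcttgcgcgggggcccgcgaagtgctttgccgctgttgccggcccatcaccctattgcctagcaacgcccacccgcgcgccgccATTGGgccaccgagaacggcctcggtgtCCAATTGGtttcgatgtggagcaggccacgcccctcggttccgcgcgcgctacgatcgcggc
Elovl7: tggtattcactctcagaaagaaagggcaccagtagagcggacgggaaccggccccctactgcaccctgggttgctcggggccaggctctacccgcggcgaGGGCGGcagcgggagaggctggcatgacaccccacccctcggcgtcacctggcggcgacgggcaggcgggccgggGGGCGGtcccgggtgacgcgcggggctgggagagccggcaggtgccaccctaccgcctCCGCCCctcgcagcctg

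Levels are log2 of the deposited linear intensity, and differences are log2 differences with the standard error (SE) of a limma fit over all arrays. Calls were made 2-sided at an adjusted p under 0.05, with Benjamini-Hochberg adjustment across the 19938 genes. Deposited intensities ran from 20.7 to 20262, and array medians from 191 to 226. Centring each array on its median moved the median difference of all genes from -0.11 to -0.24 in kidney tumors, -0.12 to -0.35 in secondary tumors and -0.13 to -0.33 in liver tumors, and the share of higher calls from 43.6% to 30.8%, 43.6% to 29.8% and 41.2% to 23.2%. Some arrays stood apart. The mean of 10 adipocyte markers was 9.51 on normal kidney array 2, 10.35 on normal liver array 1 and 9.05 on secondary tumor array 1, against 6.50 to 7.17 on the other 13 arrays. Normal liver array 1 also had a mean of 11.24 over 5 steroidogenic (adrenal) markers, against 5.78 to 6.58 on all other arrays, and 9.65 over 6 proximal tubule markers, against 8.38 and 7.20 on the other normal liver arrays. Xist, which marks cells with an inactive X chromosome, was at 10.84 and 10.19 on kidney tumor arrays 2 and 3 but 5.60 on array 1, and at 10.45 and 11.35 on liver tumor arrays 2 and 3 but 5.88 on array 1. In normal kidney it was at 5.65 to 5.86 and in normal liver at 5.79 to 5.99. The mean of 3 Y-linked genes was 9.21 to 9.44 in normal kidney and 9.23 to 9.35 in normal liver. In kidney tumors it was 7.67 to 9.42 and in liver tumors 8.24 to 9.32. The part of these differences in the comparisons of tumor with normal tissue was not tested. The tissue labels of normal kidney, normal liver and the primary tumors held against their markers, but kidney markers did not set secondary tumors apart from ES cells. The hepatocyte list (6 of 7 measured) averaged 13.53 to 13.57 in normal liver and 12.62 to 13.37 in liver tumors, and the proximal tubule list 13.06 to 13.19 in normal kidney, 10.86 to 11.85 in kidney tumors and 7.11 to 7.17 in secondary tumors, where kidney markers are near their level in ES cells (7.03).

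Sterol synthesis enzymes fell together in liver tumors. All 14 were lower than in normal liver past the threshold, by a median of 1.35 on the log2 scale, where the median of all genes was -0.13. No array of one group overlapped the other for any of the 14. Of the 28 members, 24 fell and 2 rose, and 27 had arrays that did not overlap between the groups, where 52.3% of all genes were called, 30.7% falling and 21.5% rising, and 59.2% did not overlap. With arrays centred, 25 fell and 2 rose, where 67.9% of all genes were called and 23.2% of those calls were higher. Without normal kidney array 2 and normal liver array 1, which carry adipocyte markers, 24 fell and 2 rose. In that fit 46.1% of all genes were called.

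Among the enzymes of the mevalonate steps, Hmgcs1, which makes HMG-CoA, was at 12.27, 12.28 and 12.56 in normal liver and at 11.01, 11.53 and 10.94 in liver tumors. Every tumor array lay below every normal array, and the fitted difference was -1.21 (SE 0.16, limma adjusted p = 5.02e-05). Mevalonate kinase Mvk fell from 10.32, 10.25 and 10.49 to 8.95, 9.30 and 8.63 (-1.39, SE 0.16), and phosphomevalonate kinase Pmvk from 9.58, 9.66 and 10.29 to 7.94, 8.42 and 8.37 (-1.60, SE 0.18). Mvd, which decarboxylates the product to isopentenyl diphosphate, fell by 1.28 (SE 0.15), and Fdps, which joins these units to farnesyl diphosphate, by 1.24 (SE 0.16). Idi1, the isomerase between them, was at 12.03, 12.07 and 12.26 in normal liver and at 10.29, 11.17 and 9.80 in the tumors. Its tumor arrays spread over more than 1 log2 unit (SD 0.69, n = 3) but stayed below the normal ones, with a difference of -1.70 (SE 0.29, limma adjusted p = 0.000426). Idi1 has near-identical copies that the probes may not separate, and its other probe set gave -1.68.

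The squalene and lanosterol steps showed the same direction. Fdft1, squalene synthase, fell by 1.09 (SE 0.14) and Sqle, the squalene epoxidase that limits the later part of the pathway, by 0.84 (SE 0.19), the smallest change among the 14. Lss, which closes the sterol rings, was at 10.90, 11.15 and 11.38 in normal liver and 9.75, 9.88 and 9.25 in the tumors, a difference of -1.52 (SE 0.18, limma adjusted p = 2.62e-05). The demethylation enzymes Cyp51, Nsdhl and Hsd17b7 fell by 1.22 (SE 0.26), 1.35 (SE 0.16) and 1.68 (SE 0.16). Of the last steps, Dhcr7 fell by 1.35 (SE 0.16), and Sc5d, the lathosterol desaturase, had the largest change of the 14. Sc5d was at 12.82, 12.90 and 12.97 in normal liver and 10.51, 11.26 and 11.09 in the tumors, so that its level was 3.84-fold lower (log2 difference -1.94, SE 0.19, limma adjusted p = 4.9e-06).

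**Figure D1:**
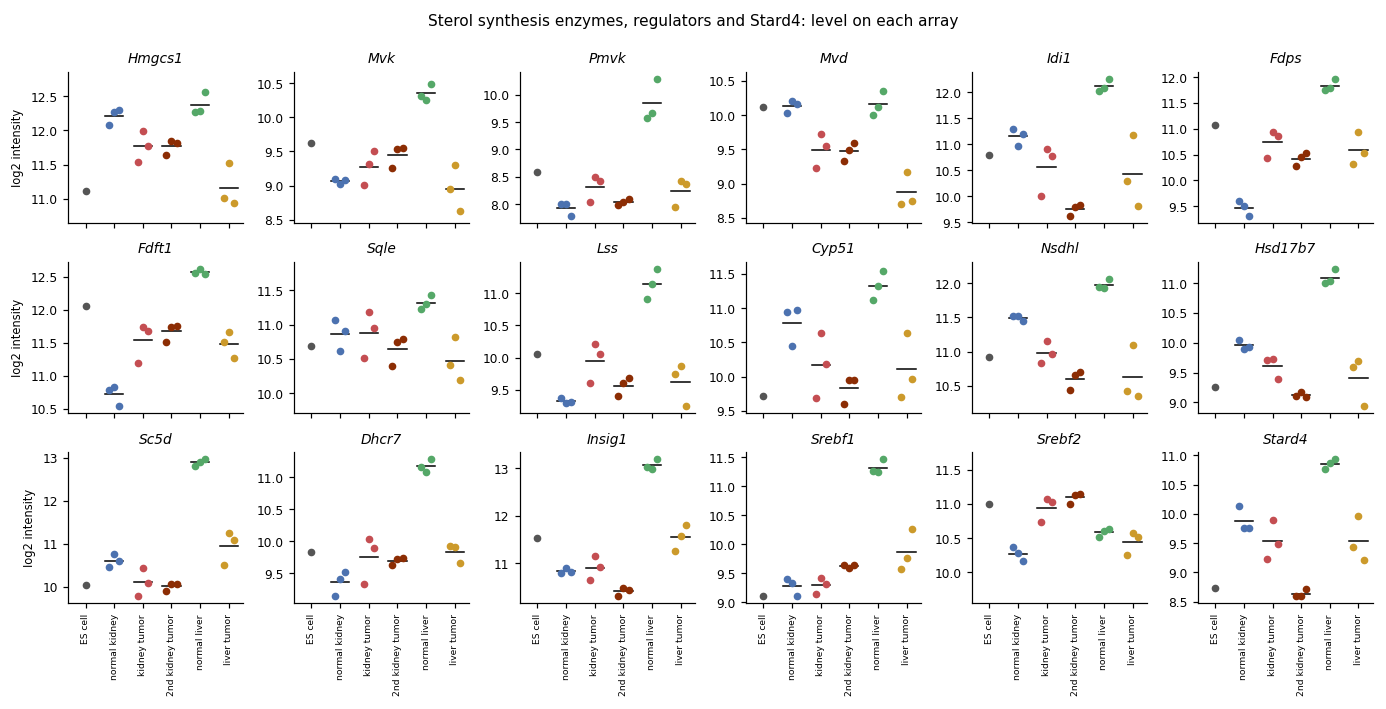
Level on each array (log2 intensity, vertical axis, scaled per gene) of the 14 sterol enzymes and of Insig1, Srebf1, Srebf2 and Stard4, by group, with points for arrays and bars for group means. Normal liver has the highest mean for all genes shown but Srebf2, and the liver tumor arrays lie below the normal liver arrays for all but Srebf2, where they overlap.

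The genes of regulation and transport fell as well, with 1 exception. Insig1, the sterol-sensing retention protein and itself an SREBP target, was at 13.03, 12.99 and 13.20 in normal liver and at 11.25, 11.58 and 11.81 in liver tumors, a difference of -1.53 (SE 0.14, limma adjusted p = 4.31e-06). Srebf1, which encodes the SREBP form that drives lipogenesis, fell from 11.26, 11.24 and 11.47 to 9.57, 9.77 and 10.26 (-1.45, SE 0.15). Stard4, a carrier of cholesterol between membranes, fell by 1.32 (SE 0.19). Srebf2, which encodes the form that drives the sterol enzymes, was at 10.51, 10.61 and 10.63 in normal liver and 10.25, 10.58 and 10.51 in the tumors. The groups overlapped, and the difference was -0.14 (SE 0.11, limma adjusted p = 0.298).

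Within fatty acid synthesis, 7 of 10 genes fell in liver tumors and 2 rose. The 3 enzymes that carry citrate carbon to palmitate fell, ATP citrate lyase Acly by 0.86 (SE 0.12), acetyl-CoA carboxylase Acaca by 0.82 (SE 0.24) and fatty acid synthase Fasn by 1.26 (SE 0.34). Fasn was at 12.76, 12.55 and 12.41 in normal liver and at 11.24, 11.31 and 11.38 in the tumors, without overlap. Acaca was no longer called without normal liver array 1, which carries the high adipocyte markers (-0.68, limma adjusted p = 0.0502), while its other probe set gave -0.84 over all arrays. The elongases Elovl1, Elovl5 and Elovl6, which extend saturated, polyunsaturated and palmitate-length chains, fell by 0.89 (SE 0.14), 0.98 (SE 0.17) and 0.91 (SE 0.14).

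Elovl3, an elongase of very long saturated chains, had the largest difference of any member. It was at 12.42, 12.36 and 10 in normal liver and at 6.05, 5.84 and 6.01 in liver tumors. The tumor arrays were at the level of every array outside normal liver, which ran from 5.78 to 6.44, and normal liver array 3 stood below the other normal liver arrays. The fitted difference was -5.63 (SE 0.46, limma adjusted p = 1.55e-06). No detection call accompanies the deposited values, so whether the transcript was above background outside normal liver was not tested, and the fold there may be understated.

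Scd2 and Elovl7 rose in liver tumors. Scd2, a stearoyl-CoA desaturase found in brain and in developing tissue, was at 11.24, 8.94 and 9.52 in normal liver and at 11.52, 12.42 and 12.07 in the tumors, a difference of 2.11 (SE 0.45, limma adjusted p = 0.00199). The high normal array was the one with adipocyte and adrenal markers, and without it the difference was 2.78 (limma adjusted p = 2.15e-05). Elovl7, another elongase, was at 7.79, 7.29 and 7.40 in normal liver and at 7.96, 9.24 and 9.40 in the tumors, a difference of 1.37 (SE 0.37, limma adjusted p = 0.00836). Liver tumor array 1, without Xist, was close to normal liver for Elovl7, so its rise rests mainly on arrays 2 and 3. Calls of a fit without arrays 2 and 3 are not given, since it leaves 1 tumor array. Scd1, the main hepatic desaturase, was at 13.53, 13.52 and 13.46 in normal liver and 12.74, 13.05 and 13.40 in the tumors (-0.44, SE 0.46, limma adjusted p = 0.432). Its groups did not overlap. The SE is shared by all groups, and the SD of Scd1 was 1.22 in secondary tumors against 0.04 in normal liver and 0.33 in liver tumors. These liver levels are near the highest deposited intensity, so a fall may be understated, and the lack of a call does not show an equal level. Probes for Scd1 and Scd2 may share signal, since the genes are close paralogs.

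**Figure D2:**
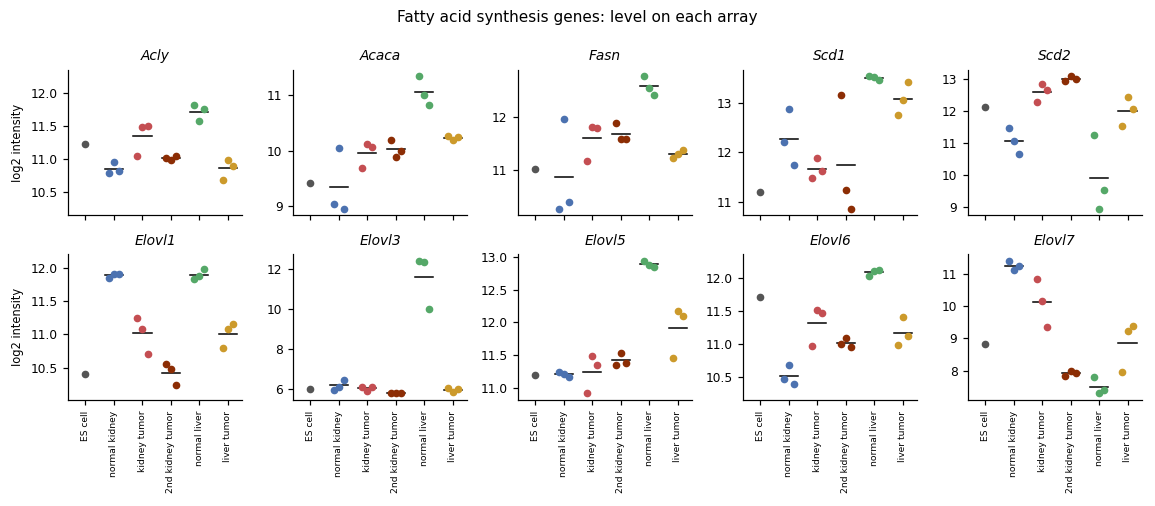
Level on each array (log2 intensity, vertical axis, scaled per gene) of the 10 fatty acid synthesis genes by group, with points for arrays and bars for group means. Elovl3 is high in normal liver alone, Scd2 is lowest and most spread in normal liver, and Elovl7 is highest in normal kidney.

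Hepatocyte markers moved with these genes in part. Of the 6 measured, 3 fell and 3 were not called, with a median difference of -0.55, and their mean was 13.37, 12.70 and 12.62 on liver tumor arrays 1 to 3. Alb, Apoa1 and Ttr were at 13.24 to 13.90 in both groups, near the highest deposited intensity, so a fall in them may be understated. On liver tumor arrays 1 to 3, Cps1 was at 13.39, 11.98 and 11.46 and Tat at 13.19, 11.15 and 10.85. In normal liver Cps1 was at 13.45 to 13.54 and Tat at 12.99 to 13.23. On array 1, where the hepatocyte mean was nearest to normal liver, the mean of the 14 sterol enzymes was 9.93, against 10.39 and 9.84 on the other tumor arrays and 11.33, 11.39 and 11.60 in normal liver. Proliferation markers (3 of 4 measured) rose in the tumors, from 8.68 to 9.72 in normal liver to 10.66 to 11.30, and macrophage markers were at 8.62 to 8.70 in normal liver and 9.51 to 10.31 in tumors. Their part in the differences was not tested, and in bulk tissue fewer cells of a type and less RNA per cell cannot be told apart.

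Other genes of these pathways were counted in the liver from lists by name, beside the 30.7% of all genes that fell and the 21.5% that rose. Of 5 other sterol synthesis genes measured, 4 fell, among them the sterol demethylation enzyme Msmo1 (-1.56, SE 0.25) and the sterol reductase Tm7sf2 (-1.93, SE 0.11), and Lbr rose by 1.06 (SE 0.18). Of 3 genes of the SREBP machinery, Scap, the escort of SREBP, fell by 0.90 (SE 0.11) and Insig2 by 0.56 (SE 0.12), and the protease gene Mbtps1 rose by 0.27 (SE 0.09). Of 8 genes of sterol uptake, storage and efflux, Npc2 and Mylip rose and 4 fell, led by the biliary sterol exporter subunit Abcg8 (-2.10, SE 0.28) and the sterol-sensing receptor LXR alpha gene Nr1h3 (-1.45, SE 0.21). Of 20 other genes of fatty acid synthesis and activation, 15 fell and Elovl4 rose by 1.70 (SE 0.24), with Thrsp, a lipogenesis gene, at -2.89 (SE 0.60) and the acetyl-CoA synthetase Acss2 at -2.47 (SE 0.23). Of 7 triglyceride assembly genes, 5 fell and none rose, led by Gpam (-1.39, SE 0.13) and Agpat2 (-1.23, SE 0.22), enzymes of the first acylation steps. The names of the genes that rose were chosen after their values were seen.

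Kidney tumors had no such common direction. Against normal kidney, 7 of 28 members rose and 6 fell past the threshold, a share of 46.4% called where 49.8% of all genes were called (21.7% higher and 28.1% lower), and 16 did not overlap between the groups where 64.6% of all genes did not. These shares are near or below the background and are no result about the members as a set. With arrays centred, 7 rose and 10 fell, where 58.8% of all genes were called and 30.8% of those calls were higher. Without normal kidney array 2 and normal liver array 1, 9 rose and 4 fell, where 45.4% of all genes were called. Of the sterol enzymes 3 rose, 4 fell and 7 were not called, with a median difference of -0.16 beside -0.11 for all genes. With quantile normalization 4 of the 14 were called and with arrays centred 10, where 48.3% and 58.8% of all genes were.

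Fdps was at 9.60, 9.50 and 9.31 in normal kidney and at 10.44, 10.93 and 10.86 in kidney tumors. The groups were apart, and the level was 2.42-fold higher in the tumors (log2 difference 1.27, SE 0.16, limma adjusted p = 2.88e-05). Fdft1 rose from 10.78, 10.84 and 10.54 to 11.20, 11.74 and 11.68 (0.82, SE 0.14), and its other probe set gave 0.80. Lss rose from 9.38, 9.30 and 9.31 to 9.61, 10.21 and 10.05 (0.63, SE 0.18, limma adjusted p = 0.0112). Without kidney tumor array 2 Lss was no longer called (0.50, limma adjusted p = 0.0558). Mvd fell from 10.04, 10.21 and 10.17 to 9.23, 9.72 and 9.55 (-0.64, SE 0.15), without overlap. The falls of Hmgcs1 (-0.45, SE 0.16), Nsdhl (-0.51, SE 0.16) and Sc5d (-0.50, SE 0.19) were each lost in some fits that left out 1 array, for Nsdhl without kidney tumor array 1 and for Hmgcs1 and Sc5d without normal kidney array 2 or 3 or kidney tumor array 1 or 3. With quantile normalization Hmgcs1 was at -0.08. Mvk (0.21), Pmvk (0.39), Idi1 (-0.59), Sqle (0.02), Cyp51 (-0.62), Hsd17b7 (-0.34) and Dhcr7 (0.39) were not called.

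Of the 4 genes of regulation and transport, Srebf2 rose in kidney tumors and the other 3 were not called. Srebf2 was at 10.37, 10.28 and 10.16 in normal kidney and at 10.74, 11.07 and 11.03 in the tumors, all above the normal arrays (0.68, SE 0.11, limma adjusted p = 0.000173). Insig1 differed by 0.07 (SE 0.14), Srebf1 by 0.01 (SE 0.15) and Stard4 by -0.34 (SE 0.19). In the liver Srebf2 was the only 1 of the 4 without a called change, and here it was the only 1 with a called change.

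In the fatty acid branch of the kidney, Acly, Elovl6 and Scd2 rose and Elovl1 and Elovl7 fell. Scd2 was at 11.45, 11.05 and 10.65 in normal kidney and at 12.28, 12.85 and 12.65 in kidney tumors, a difference of 1.55 (SE 0.45, limma adjusted p = 0.0118). The groups did not overlap, and the call was lost without normal kidney array 3 (limma adjusted p = 0.0515). Elovl6 rose by 0.80 (SE 0.14) and Acly by 0.49 (SE 0.12). Elovl1 fell from 11.85, 11.91 and 11.92 to 11.26, 11.08 and 10.71 (-0.88, SE 0.14, limma adjusted p = 0.000145). Elovl7 was at 11.42, 11.12 and 11.25 in normal kidney, its highest level in any group, and at 10.86, 10.17 and 9.36 in kidney tumors. Its difference of -1.13 (SE 0.37, limma adjusted p = 0.0223) ranged from -1.50 to -0.75 as single arrays were left out, with -0.75 without kidney tumor array 3, and it was not called without normal kidney array 1 or 3 or kidney tumor array 3. Elovl3 (-0.15) and Elovl5 (0.04) were not called.

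Fasn, Acaca and Scd1 in normal kidney varied with the array that carried adipocyte markers. Fasn was at 10.28, 11.95 and 10.41 in normal kidney and at 11.18, 11.82 and 11.80 in kidney tumors, and Acaca at 9.04, 10.05 and 8.96 against 9.69, 10.11 and 10.06. The high value of each in normal kidney was on array 2, and the groups overlapped. Over all arrays Fasn differed by 0.72 (SE 0.34, limma adjusted p = 0.0951) and Acaca by 0.61 (SE 0.24, limma adjusted p = 0.0505). Without normal kidney array 2, both were called higher in kidney tumors, Fasn by 1.26 (limma adjusted p = 0.000179) and Acaca by 0.95 (limma adjusted p = 0.000462). Scd1, abundant in fat tissue as well as liver, was at 12.20, 12.88 and 11.75 in normal kidney and at 11.50, 11.90 and 11.64 in kidney tumors (-0.60, SE 0.46, limma adjusted p = 0.292).

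**Figure D3:**
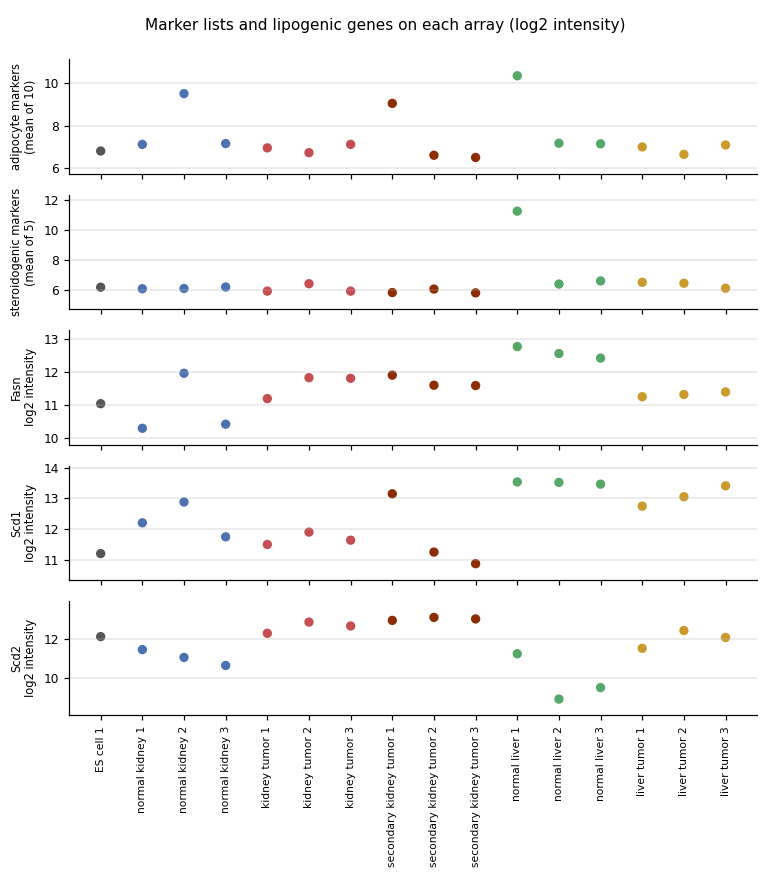
Mean log2 intensity of 10 adipocyte and 5 steroidogenic markers (upper panels) and log2 intensity of Fasn, Scd1 and Scd2 (lower panels) on each of the 16 arrays. Adipocyte markers are high on normal kidney array 2 (9.51), secondary kidney tumor array 1 (9.05) and normal liver array 1 (10.35). Fasn is highest of its group on all 3 of these arrays, Scd1 too, and Scd2 on normal liver array 1.

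Kidney tumor arrays differed among themselves across the pathway. Array 1 had the lowest of the 3 values in 24 of 28 members, where it was lowest for 40.7% of all genes. The 24 include 13 of 14 sterol enzymes and all 4 genes of regulation and transport. Array 2 had the highest value in 23 of 28, where it was highest for 24.4% of all genes. The sterol enzyme mean was 9.92, 10.46 and 10.29 on the 3 arrays. Array 1 is the kidney tumor array without Xist signal, and its proliferation mean was 10.68 against 11.30 and 11.37. With arrays 2 and 3 left out, a single tumor array remains and is assumed to vary as the other groups. Calls of that fit are no result about the members as a set.

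In the other lists, beside 28.1% of all genes lower and 21.7% higher in kidney tumors, Msmo1 (0.73, SE 0.25) and Lbr rose in kidney tumors and the sterol isomerase Ebp (-0.91, SE 0.11) and Tm7sf2 fell, of 5 sterol synthesis genes. Scap fell by 0.63 (SE 0.11) and Insig2 by 0.67 (SE 0.12), and Mbtps1 rose by 0.41 (SE 0.09). Of 8 uptake, storage and efflux genes, Npc1, Npc2 and Abcg1 rose and 2 fell, namely Nr1h3 (-1.56, SE 0.21) and Mylip (-0.98, SE 0.19). Of 20 other fatty acid genes, Elovl4 (2.09, SE 0.24), Acsl4 and Hacd1 rose and 10 fell, led by Acss2 (-2.45, SE 0.23). Of 7 triglyceride assembly genes 6 fell and none rose, among them the phosphatidate phosphatase Lpin1 (-1.85, SE 0.58) and the acyltransferase Dgat2 (-1.50, SE 0.32). Lbr, Tm7sf2, Mbtps1, Npc1, Npc2, Abcg1, Acsl4 and Hacd1 are named after their values were seen. Proximal tubule markers had a median difference of -1.43 and proliferation markers of 4.70 in the same comparison, and their part in these values was not tested.

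**Figure D4:**
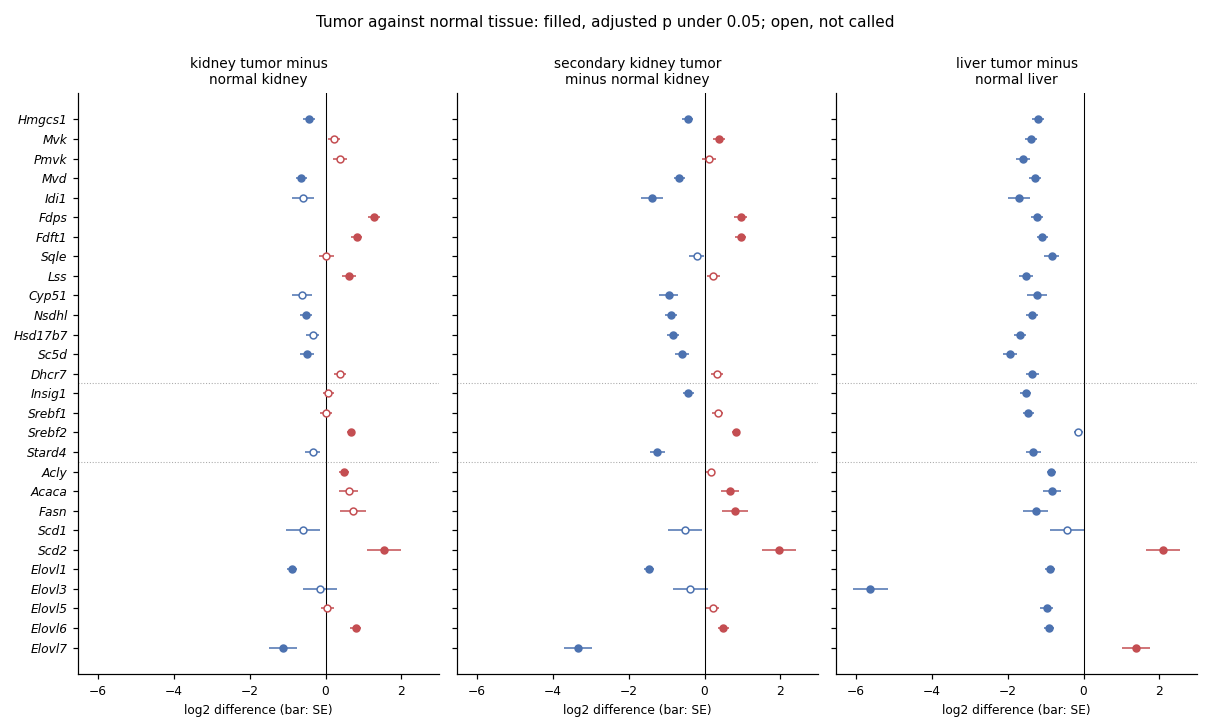
Log2 difference from normal tissue (horizontal axis, bar SE, the same scale in each panel) of the 28 members in kidney tumors, secondary kidney tumors and liver tumors. Red marks values above 0, blue values below 0, filled points an adjusted p under 0.05 and open points values not called. Dotted lines part sterol enzymes, genes of regulation and transport, and fatty acid genes. The sterol enzymes lie on both sides of 0 in the kidney panels and all below 0 in the liver panel.

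Secondary kidney tumors were set beside normal kidney and primary kidney tumors. Against normal kidney 8 members rose and 11 fell, or 67.9% called, where 68.6% of all genes were called (29.9% higher and 38.7% lower), and 23 did not overlap where 79.6% of all genes did not. The share is at the background. With arrays centred, 4 rose and 12 fell, where 77.0% of all genes were called and 29.8% of those calls were higher. Of the sterol enzymes, 3 rose (Mvk, Fdps and Fdft1) and 7 fell. Fdps was at 10.28, 10.45 and 10.53 and Fdft1 at 11.51, 11.74 and 11.75 in secondary tumors, both 0.95 above normal kidney (SE 0.16 and 0.14). Mvk, at 0.38 (SE 0.16, limma adjusted p = 0.0473), lost its call when normal kidney array 1, 2 or 3 or secondary tumor array 2 or 3 was left out.

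Idi1 showed the largest fall among the sterol enzymes of the secondary tumors. It was at 11.30, 10.96 and 11.19 in normal kidney and at 9.62, 9.80 and 9.84 in secondary tumors (-1.40, SE 0.29, limma adjusted p = 0.000971), without overlap. Cyp51 fell by 0.95 (SE 0.26), Nsdhl by 0.89 (SE 0.16), Hsd17b7 by 0.83 (SE 0.16) and Mvd by 0.67 (SE 0.15). Sc5d (-0.59, SE 0.19) was not called without normal kidney array 2, and Hmgcs1 (-0.45, SE 0.16) not without normal kidney array 2 or 3 or secondary tumor array 1. Pmvk (0.11), Sqle (-0.21), Lss (0.23) and Dhcr7 (0.33) were not called. Of the genes of regulation and transport, Srebf2 rose to its highest level of any group, 11.01, 11.13 and 11.15 (0.83, SE 0.11, limma adjusted p = 1.85e-05). Stard4 fell to 8.60, 8.60 and 8.72 (-1.24, SE 0.19, limma adjusted p = 8.63e-05). Insig1 fell by 0.43 (SE 0.14) but was not called without normal kidney array 2 or secondary tumor array 1, and Srebf1 differed by 0.34 (SE 0.15, limma adjusted p = 0.0568).

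Among the fatty acid genes of secondary tumors, Scd2 stood at 12.94, 13.09 and 13.01, its highest level of any group and 1.96 above normal kidney (SE 0.45, limma adjusted p = 0.00191). Elovl7 fell to 7.83, 8.0 and 7.92 and was 10.2-fold lower than in normal kidney (-3.35, SE 0.37, limma adjusted p = 4.41e-06). Elovl1 fell by 1.47 (SE 0.14) and Elovl6 rose by 0.49 (SE 0.14). Fasn (0.81, SE 0.34, limma adjusted p = 0.0492) and Acaca (0.67, SE 0.24, limma adjusted p = 0.0238) passed the threshold over all arrays and were lost in several of the fits that left out 1 array, among them secondary tumor array 1 for both. Without normal kidney array 2 they were at 1.34 and 1.02, and Fasn was at 0.51 without normal kidney array 1. Scd1 was at 13.15, 11.25 and 10.87, the high value being on the secondary tumor array with adipocyte markers. Over all arrays it differed from normal kidney by -0.52 (SE 0.46, limma adjusted p = 0.323), and without that array by -1.22 (limma adjusted p = 0.00243). Without both normal kidney array 2 and secondary tumor array 1, 7 members were called higher and 9 lower, where 59.3% of all genes were called. Acly (0.16), Elovl3 (-0.38) and Elovl5 (0.21) were not called. Markers of other cell types moved in the same comparison. The mean of 4 neuron markers was 6.64 to 6.75 in normal kidney and 10.39 to 10.95 in secondary tumors, with 4 of 4 called higher and a median difference of 4.53. The mean of 4 fibroblast markers was 8.44 to 8.84 and 11.45 to 11.87, with 4 of 4 higher. Of 4 astrocyte markers 3 were higher and 1 lower (mean 8.89 to 9.09 and 10.51 to 10.98), and of 5 keratinocyte markers 4 were higher and 1 lower (mean 6.83 to 7.18 and 8.59 to 9.13). All 6 proximal tubule markers were lower, with a median difference of -5.86. Their part in the members' differences was not tested.

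Directly against primary kidney tumors, 7 members were lower in secondary tumors and none was higher, or 25% called where 36% of all genes were called (18.5% higher and 17.4% lower), and 10 did not overlap where 56.2% of all genes did not. The 7 were Idi1 (-0.81, SE 0.29), Hsd17b7 (-0.49, SE 0.16), Insig1 (-0.50, SE 0.14), Stard4 (-0.90, SE 0.19), Acly (-0.33, SE 0.12), Elovl1 (-0.59, SE 0.14) and Elovl7 (-2.22, SE 0.37). Elovl7, Stard4 and Elovl1 were called in every fit that left out 1 array, and the other 4 each lost their call in 2 to 5 of the 6 such fits. The count fell to 3 without kidney tumor array 2 or secondary tumor array 1 and to 4 without secondary tumor array 2 or 3. In those fits 28.8% to 31.2% of all genes were called. Secondary tumor array 1 had the lowest value of its group in 13 of 14 sterol enzymes, where it was lowest for 42.5% of all genes. In the other lists, Ebp (-0.66, SE 0.11) and Lbr (-0.77, SE 0.18), of 5 sterol synthesis genes, were lower in secondary tumors. Of 3 SREBP machinery genes 1 was lower, and the protease gene Mbtps1 was higher by 0.57 (SE 0.09). Of 20 other fatty acid genes 4 were higher and 9 lower, with differences from -1.87 to 1.66. Of 8 uptake, storage and efflux genes 2 were lower and none higher, and of 7 triglyceride assembly genes 1 was higher and 1 lower.

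Normal liver and normal kidney differed across most of the list, and the tumors of the same organs differed less. Normal liver had the highest group mean for 25 of the 28 members, including all 14 sterol enzymes. The exceptions were Srebf2 and Scd2, highest in secondary tumors, and Elovl7, highest in normal kidney. The share of all genes with their highest mean in normal liver was not determined. Between the normal organs, 20 members were higher in liver and 1 lower, where 37.8% of all genes were called, 16.4% higher and 21.4% lower, and 24 did not overlap where 56.4% of all genes did not. Without normal kidney array 2 and normal liver array 1, 17 were higher and 2 lower, where 29.0% of all genes were called. Of the sterol enzymes 10 were higher, with a median difference of 1.21 beside 0.04 for all genes, led by Fdps (2.36, SE 0.16) and Sc5d (2.29, SE 0.19). Hmgcs1 (0.16), Mvd (0.02), Sqle (0.46) and Cyp51 (0.54) were not called. All 4 genes of regulation and transport were higher in normal liver. Insig1 was higher by 2.24 (SE 0.14), Srebf1 by 2.04 (SE 0.15), Stard4 by 0.98 (SE 0.19) and Srebf2 by 0.32 (SE 0.11). Srebf2 was not called without normal kidney array 2 or 3 or normal liver array 2 or 3. Idi1 (0.97, SE 0.29) was not called without normal kidney array 2 or normal liver array 3, and Nsdhl (0.48, SE 0.16) not when any of the 6 arrays was left out. Elovl3 was 5.42 higher (SE 0.46) and Elovl7 3.77 lower in liver than in kidney (difference -3.77, SE 0.37). Scd2 differed by -1.15 (SE 0.45, limma adjusted p = 0.0609), and by -1.82 without normal liver array 1 (limma adjusted p = 0.000324). The age of the normal liver samples is not given, and their proliferation mean of 8.68 to 9.72 exceeded that of normal kidney, 6.37 to 6.54.

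Between liver and kidney tumors, 4 members were higher in liver tumors and 5 lower, where 5.9% of all genes were higher and 7.06% lower. The median absolute difference of the 28 genes was 1.43 between the normal organs and 0.33 between the tumors, and over all genes it was 0.25 and 0.14. The difference was smaller between the tumors for 24 of the 28 members (85.7%) and for 71.1% of all genes. Sc5d (0.85, SE 0.19), Insig1 (0.64, SE 0.14), Srebf1 (0.57, SE 0.15) and Elovl5 (0.66, SE 0.17) were still higher in liver tumors. Hmgcs1 (-0.61, SE 0.16), Mvd (-0.62, SE 0.15), Srebf2 (-0.50, SE 0.11), Acly (-0.48, SE 0.12) and Elovl7 (-1.27, SE 0.37) were lower. Of these 9 calls, Sc5d, Insig1 and Srebf2 were made in every fit that left out 1 array, and none of the 9 was called with only the compared groups in the fit. Srebf1 was at 0.37 without liver tumor array 3 and Elovl7 at -0.81 without liver tumor array 1. The count was 5 without kidney tumor array 2, liver tumor array 1 or liver tumor array 3. In those fits 9.56%, 11.4% and 10.2% of all genes were called.

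**Figure D5:**
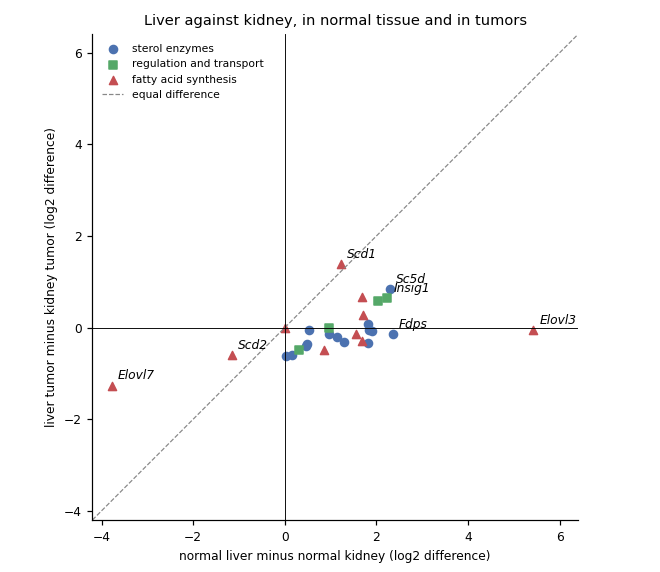
Liver minus kidney log2 difference in tumors (vertical axis) against the same difference in normal tissue (horizontal axis) for the 28 members, with the line of equal difference dashed. Most sterol enzymes lie between 0 and 2.36 on the horizontal axis and near 0 on the vertical axis, and Elovl3 goes from 5.42 in normal tissue to -0.06 in tumors.

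The change from normal tissue to tumor was tested for a difference between the organs, as the kidney change minus the liver change. The same quantity is the liver minus kidney difference in normal tissue less that in tumors, so it restates the comparisons above. It was above 0 past the threshold for 21 members and below 0 for 1, where 7.54% and 9.26% of all genes were. The sterol enzymes gave 11 of 14, with Fdps at 2.51 (SE 0.23), Lss at 2.15 (SE 0.26), Pmvk at 1.99 (SE 0.26) and Fdft1 at 1.91 (SE 0.20). Mvd (0.64, SE 0.21, limma adjusted p = 0.0551), Idi1 (1.11, SE 0.41, limma adjusted p = 0.0877) and Cyp51 (0.60, SE 0.37, limma adjusted p = 0.318) were not called. All 4 genes of regulation and transport and 6 fatty acid genes were above 0, Elovl3 at 5.48 (SE 0.65). Elovl7 was the member below 0 (-2.51, SE 0.53). Elovl1 gave 0.01 (SE 0.19), since it fell by 0.88 in kidney and 0.89 in liver tumors. Of the 22 calls, 18 were made in every fit that left out 1 array, and Hmgcs1, Sqle, Nsdhl and Stard4 were not. Without normal kidney array 2 and normal liver array 1, 16 were above 0 and 1 below, where 11.8% of all genes were called. The count of members was lower with kidney tumor arrays 2 and 3 left out.

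The single ES cell array has no replicate and is described only. Its mean over the 14 sterol enzymes was 10.28, beside 10.20 to 10.25 in normal kidney, 9.92 to 10.46 in kidney tumors, 9.84 to 10.39 in liver tumors and 11.33 to 11.60 in normal liver. It lay below all normal liver arrays for 24 of 28 members. Against kidney tumors it lay within the range of the 3 arrays for 11 members, above it for 7 and below it for 10, and against secondary tumors it was above for 10 of 14 sterol enzymes. The share of all genes in these positions was not determined, so the counts are no result about the members as a set. ES cells had 12.06 for Fdft1 and 11.71 for Elovl6, above every kidney and liver tumor array. Hmgcs1 was at 11.12 and Srebf1 at 9.11 in ES cells, both below every kidney tumor array.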

How the data were processed

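The authors deposited linear intensities, 1 per probe set and array, made by steps not given in the sources used here. Per the submitters' processing notes the genome build was mm9. Per the labels' protocols, the RNeasy Plus Mini kit gave the RNA, and Affymetrix's WT Terminal Labeling Kit the biotin label. The log2 of each deposited value was taken without further scaling. Of 28856 probe sets, 21789 had 1 symbol in the platform annotation, 1621 several and 5446 none; for 999 genes with over 1 probe set the highest-mean one was kept. limma 3.58.1 in R 4.3.3 fitted 1 coefficient per group over all 16 arrays (10 residual and 2.66 prior degrees of freedom). The contrasts numbered 7. Errors beside levels are SDs over 3 arrays, and that number limits the precision. The members and all lists were chosen with earlier results of these data known. All members are named, and from each other list the 2 called genes of largest change in a contrast, besides genes named after their values were seen, as stated there. The alternatives were other normalizations, probe set rules, filters, variance models and samples.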

Additional observations from a re-analysis of the deposited data

Results flagged for a closer look

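The change from normal tissue to tumor differed between kidney and liver for 22 of the 28 genes, by limma's test of the kidney change minus the liver change (adjusted p under 0.05 over all genes). The same test called 16.8% of all genes. It is the test already given above and no further result. Among the sterol enzymes the difference was 0.76 for Hmgcs1, 1.61 for Mvk, 1.99 for Pmvk, 2.51 for Fdps, 1.91 for Fdft1, 0.86 for Sqle, 2.15 for Lss, 0.84 for Nsdhl, 1.34 for Hsd17b7, 1.44 for Sc5d and 1.74 for Dhcr7. Among the genes of regulation and transport it was 1.60 for Insig1, 1.47 for Srebf1, 0.81 for Srebf2 and 0.98 for Stard4. In the fatty acid branch it was 1.34 for Acly, 1.43 for Acaca, 1.98 for Fasn, 5.48 for Elovl3, 1.02 for Elovl5 and 1.71 for Elovl6. For these 21 genes the kidney value was above the liver value, and Elovl7 had the opposite sign, -2.51, falling in kidney tumors and rising in liver tumors. The adjusted p was between 3.13e-05 for Fdps and 0.0443 for Sqle.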

How the results depend on the processing

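Over 3465 recomputed differences of single members, none changed sign with a call in either the reported or the recomputed fit. Of these differences 203 lost their call and 99 gained one, and 107 changed sign without being called in either fit. Of 124 recomputed counts of members called, 109 stayed within 1.5 times the reported count. Of the 15 that moved further, 7 left out 1 array and lie within the ranges given for single arrays. The other 8 were, for kidney tumor against normal kidney, 8 without kidney tumors 2 and 3. For secondary against primary kidney tumor they were 11 with arrays centred on their median, 11 with array weights and 2 without kidney tumors 2 and 3. For liver against kidney tumor they were 1 with only the compared groups in the fit, 14 with array weights and 4 without kidney tumors 2 and 3. For the difference between organs the count was 13 without kidney tumors 2 and 3. The share of all genes called moved as well. For secondary against primary tumor it went from 36% to 40.4% with arrays centred and 46.3% with array weights. For liver against kidney tumor it went from 13% to 4.75% with only the compared groups and 21.9% with array weights. In the fits without kidney tumors 2 and 3 it was below the reported share. The cause of these shifts was not tested, apart from the smaller number of arrays where some were left out.

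Leaving out each array in turn gave 10 to 14 members called for kidney tumor against normal kidney, 15 to 17 for secondary tumor against normal kidney, 3 to 9 for secondary against primary tumor, 25 to 26 for liver tumor against normal liver, 18 to 21 for normal liver against normal kidney, 5 to 10 for liver against kidney tumor and 18 to 24 for the difference between organs. In the same fits the share of all genes called ran from 28.8% to 33.3% for secondary against primary tumor. For liver against kidney tumor it ran from 9.56% to 19.3%. It was 42.0% to 50.4% for kidney tumor and 61.4% to 65.2% for secondary tumor against normal kidney. For liver tumor against normal liver it was 43.0% to 54.5%, and for normal liver against normal kidney 31.5% to 34.7%. The difference between organs had 12.7% to 22.9%. Array weights were estimated with an early stop of the fit. The fits without normal kidney 2 and secondary tumor 1, and without liver tumors 2 and 3, were chosen after seeing the data.

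The replicate numbers were not taken as pairs, since deviations of arrays with the same number correlated between -0.28 and 0.27, with 6 of 30 pairs over 0.1. For kidney and liver tumors the correlations were 0.27, 0.25 and 0.0038 for numbers 1, 2 and 3, so a shared origin of numbers 1 and 2 was not settled, and the labels do not state one. With the number as a replicate block the counts were 14, 17, 7, 26, 21, 8 and 22 in the order of the contrasts kidney tumor, secondary tumor, secondary against primary tumor, liver tumor, normal liver against normal kidney, liver against kidney tumor and the difference between organs. In the same order 49.1%, 68.0%, 35.2%, 51.4%, 37.5%, 12.5% and 16.5% of all genes were called.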
